A study of Mus musculus with 2 samples.

Results

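The glucocorticoid receptor gene Nr3c1 and 6 genes known as its targets (Tsc22d3, Fkbp5, Per1, Sgk1, Klf9 and Txnip) were followed in CD8 T cells of the mouse spleen, lymphocytes that kill infected or transformed cells. These 7 genes were taken by name from the 33696 genes of the count matrices, and all 7 were detected in both libraries. They were read in cells with at least 200 detected genes, under 10% mitochondrial UMIs (unique molecular identifiers, one per captured RNA molecule), at least 1 UMI of Cd8a or Cd8b1 and at least 1 of Cd3d, Cd3e or Cd3g. Of the cells that passed the gene and mitochondrial limits, 8717 of 9210 in the control library and 10699 of 11671 in the treated library met this gate.

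The study set wild-type C57BL/6 mice given dehydroepiandrosterone (DHEA), an adrenal androgen precursor used to induce a mouse model of polycystic ovary syndrome, beside mice given the vehicle. The DHEA group was injected under the skin every day for 21 days with 40 mg/kg DHEA in 20 µL of sesame oil. The CTRL group had the oil alone, at the same volume and on the same schedule, so the oil and the injections are shared by both groups. CD8 T cells were taken from spleen with magnetic beads and profiled with 10x Genomics 3' chemistry, 1 library per group. The isolated cells were pooled, and how many animals each library stands for is not stated. No difference below has a replicate check, and no test was run. All intervals are exact 95% intervals that cover counting error only.

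The glucocorticoid receptor is a nuclear receptor that waits in the cytoplasm with heat shock chaperones, enters the nucleus when it binds corticosterone, and there acts on genes directly or by restraining NF-kB and AP-1. Tsc22d3 (GILZ), Fkbp5, Per1, Sgk1 and Klf9 are widely used readouts of its activity, and in T cells the hormone is known for lymphocyte death, trafficking and reduced cytokine output. Each target also answers to other inputs. Per1 is a clock gene, Sgk1 responds to growth factor and osmotic signals, Txnip to glucose through MondoA, and Tsc22d3 and Txnip also follow FOXO factors.

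Promoter windows show which of these inputs has its letters near a start site. Windows from RefSeq (build GRCm38.p6) run from 250 bases before to 50 bases after an annotated start, and 14 windows matched 6 of the 7 members. Each was searched on both strands for 7 motifs, and matches are in capitals below. The motifs were the full glucocorticoid response element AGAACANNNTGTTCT, its core GNACANNNTGTNC, its arm AGAACA, the E-box CACGTG bound by clock factors, the carbohydrate response element CACGNGNNNNNCNCGNG bound by MondoA, the FOXO site GTAAACA and the cAMP response element arm TGACGT. The full element contains the core and the arm. The 4 windows below were chosen because these members differed most between the libraries and their windows hold different motifs.
Sgk1, chr10:21993640-21993939, plus strand: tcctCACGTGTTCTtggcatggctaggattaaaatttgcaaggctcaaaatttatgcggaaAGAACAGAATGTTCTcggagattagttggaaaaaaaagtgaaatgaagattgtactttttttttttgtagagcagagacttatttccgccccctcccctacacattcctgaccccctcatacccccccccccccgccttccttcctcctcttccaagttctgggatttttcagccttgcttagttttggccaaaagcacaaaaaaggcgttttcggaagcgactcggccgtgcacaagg
Per1, chr11:69098699-69098998, plus strand: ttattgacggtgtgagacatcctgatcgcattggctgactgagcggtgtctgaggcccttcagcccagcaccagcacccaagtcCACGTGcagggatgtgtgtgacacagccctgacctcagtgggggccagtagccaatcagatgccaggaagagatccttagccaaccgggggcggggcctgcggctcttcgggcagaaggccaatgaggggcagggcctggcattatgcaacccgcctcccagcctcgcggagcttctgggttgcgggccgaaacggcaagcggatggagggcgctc
Klf9, chr19:23140976-23141275, plus strand: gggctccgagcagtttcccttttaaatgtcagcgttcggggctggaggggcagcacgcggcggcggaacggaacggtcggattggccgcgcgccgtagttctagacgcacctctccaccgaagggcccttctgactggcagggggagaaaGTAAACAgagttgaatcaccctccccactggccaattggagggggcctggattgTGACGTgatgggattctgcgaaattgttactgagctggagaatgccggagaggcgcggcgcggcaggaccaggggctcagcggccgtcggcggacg
Txnip, chr3:96557707-96558006, plus strand: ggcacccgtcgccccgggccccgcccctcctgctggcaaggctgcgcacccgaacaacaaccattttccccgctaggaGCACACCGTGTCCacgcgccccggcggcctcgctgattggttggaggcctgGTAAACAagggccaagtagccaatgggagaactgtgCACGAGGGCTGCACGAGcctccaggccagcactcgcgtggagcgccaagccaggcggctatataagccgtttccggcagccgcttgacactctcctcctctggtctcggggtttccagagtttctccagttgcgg

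The Sgk1 window holds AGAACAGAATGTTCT, starting 189 bases before the start site. The full element was found in 3 of 32851 windows (0.00913%), and in 1 of the 14 windows of the members. The same Sgk1 window has an E-box 246 bases before the start, which shares letters with an arm of the response element at 242. Per1 has an E-box at 166 and, in another window not shown, a cAMP response element arm at 132. Fkbp5 has an E-box at 169 in a window not shown. E-boxes were found in 7.15% of all windows. Klf9 has a FOXO site at 100 and a cAMP response element arm at 46, which were found in 3.65% and 7.51% of windows. Txnip has a carbohydrate response element at 85 (0.365% of windows), a FOXO site at 121 and a core of the glucocorticoid element at 172 (0.475%). The arm AGAACA, found in 19.0% of windows, was in 3 Sgk1 windows and 1 Tsc22d3 window. A match is a description of letters, and a window without one says nothing about the factor.

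The CTRL library had 51638782 UMIs over 9495 barcodes and the DHEA library 53020893 over 12128. In the gated cells these came to 49239407 and 50077687 UMIs, with medians of 5615 and 4483 per cell, so DHEA cells were shallower. The libraries had 51 barcodes in common, 44 and 45 of them in the gate. Cd4, the helper T cell co-receptor, had 3 and 4 UMIs in gated cells. The summed level of 7 natural killer cell markers was 53.0 CPM (UMIs per 1000000 UMIs of the gated cells) in CTRL and 93.2 in DHEA, where the defining marker Ncr1 had 0 UMIs. The part of other cells in the results was not tested.

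Between the libraries the targets split. Sgk1 was higher in DHEA, Per1, Klf9 and Txnip were lower, Tsc22d3 was slightly lower, and Fkbp5 and the receptor itself differed by less than counting error. Of the 6 targets, 1 was higher and 5 were lower in the DHEA library, where 49.5% of all measured genes were higher by any amount. Klf9 alone was at least 1.5-fold apart, beside 3.24% of the 10515 genes whose UMIs over both libraries came to at least 200 (1.81% higher and 1.44% lower in DHEA). Sgk1, at 1.49-fold, fell just short of that limit, which it passed with TMM scaling, where 2 members did. With that scaling 206 of all measured genes were higher and 140 lower by the same limit. The median log2 ratio of DHEA over CTRL was -0.12 over the 7 members and -0.0024 over all measured genes, 90% of which lay between -0.36 and 0.37.

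**Figure D1:**
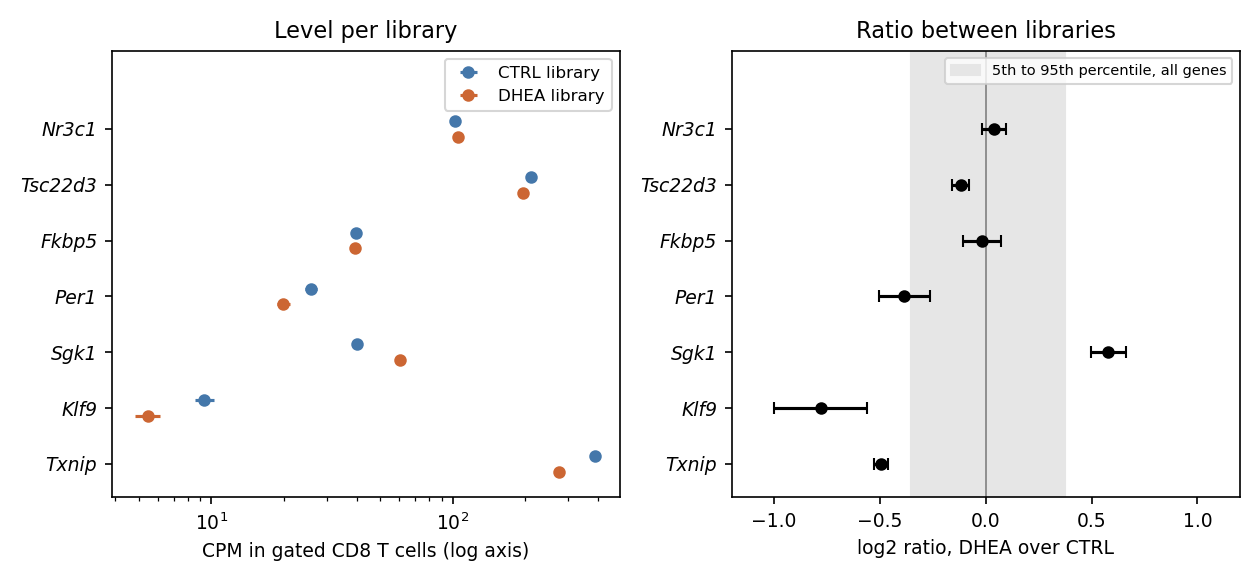
Left, the level of each member in CPM on a log axis, with exact Poisson 95% intervals, in the CTRL (blue) and DHEA (orange) libraries. Right, the log2 ratio of DHEA over CTRL with its exact 95% interval, over a grey band from the 5th to the 95th percentile of all 10515 measured genes. Sgk1 lies to the right of the band, Klf9 and Txnip to its left, Per1 at its left edge, and Nr3c1, Tsc22d3 and Fkbp5 within it.

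Nr3c1, the receptor, stood at 103 CPM (99.8 to 105) in CTRL and 105 CPM (102 to 108) in DHEA. The log2 ratio was 0.037 (-0.019 to 0.093), and the intervals of the levels overlapped. Nr3c1 spans 109 kb of the genome, and the longest of 5 groups of genes by span, to which it belongs, had a median log2 ratio of -0.15, against 0.11 in the shortest. Fkbp5 and Sgk1 are in the same long group, Tsc22d3 in the next, and Txnip is in the shortest. These spans are of whole genes. The promoter windows of Sgk1 (span 118 kb) lie between 21881934 and 21994715 on chr10, and those of Tsc22d3 (61.1 kb) also lie far apart. A transcript from a later start is shorter, and which start was in use was not tested. The span groups of Sgk1 and Tsc22d3 are therefore uncertain. With the median of genes of like span subtracted, the ratio of Nr3c1 was 0.18. After thinning every cell to 1000 UMIs it was -0.070, so its direction between the libraries was not stable over these settings.

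Fkbp5, the co-chaperone that lowers the receptor's hormone affinity and is itself induced by it, was level at 39.9 CPM (38.1 to 41.7) in CTRL and 39.4 CPM (37.6 to 41.1) in DHEA. Its log2 ratio was -0.018 (-0.11 to 0.072). Tsc22d3, the leucine zipper protein GILZ that mediates anti-inflammatory effects of glucocorticoids in T cells, stood at 212 CPM (208 to 216) in CTRL and 195 CPM (191 to 199) in DHEA. Its ratio of -0.12 (-0.16 to -0.078) was larger than counting error and well within the range of most genes. It came to -0.042 with every cell weighted equally and to -0.043 after thinning. The 2 targets most used as readouts of the receptor thus differed little between the libraries.

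Sgk1, a kinase related to AKT that phosphorylates FOXO factors and NEDD4 ligases, was the member that stood higher in DHEA. It had 1985 UMIs in CTRL and 3015 in DHEA, or 40.3 CPM (38.6 to 42.1) and 60.2 CPM (58.1 to 62.4). The log2 ratio was 0.58 (0.50 to 0.66), rank 194 from the top among the 10515 genes.

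Per1, a repressor of the circadian clock and a rapid glucocorticoid target, had 25.9 CPM (24.5 to 27.4) in CTRL and 19.9 CPM (18.7 to 21.1) in DHEA. The log2 ratio was -0.38 (-0.51 to -0.26), and 3.94% of genes had a lower one. Klf9, a Krüppel-like repressor induced by glucocorticoids and thyroid hormone, was the scarcest member by UMIs, with 461 in CTRL and 273 in DHEA. Its levels were 9.36 CPM (8.53 to 10.3) and 5.45 CPM (4.82 to 6.14), a log2 ratio of -0.78 (-1.0 to -0.56) or 1.72-fold lower in DHEA. Only 0.514% of genes had a lower ratio.

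Txnip, the thioredoxin-binding arrestin that limits glucose uptake, had the most UMIs of the 7, with 19201 in CTRL and 13861 in DHEA. It stood at 390.0 CPM (384 to 396) and 277 CPM (272 to 281). The log2 ratio was -0.49 (-0.53 to -0.46), and 2.15% of genes had a lower one. The CPM intervals of 5 members (Tsc22d3, Per1, Klf9, Txnip and Sgk1) did not overlap between the libraries, nor did those of 41.4% of all measured genes, so intervals apart are common at this depth.

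The share of cells in which a member was seen gave the same split. After every cell was thinned to 1000 UMIs, which left 8709 CTRL and 10562 DHEA cells, Txnip had a UMI in 31.6% (30.6 to 32.6) of the cells in CTRL and in 25.04% (24.2 to 25.9) of those in DHEA. Sgk1 was seen in 3.72% (3.33 to 4.14) and 6.02% (5.58 to 6.49), Per1 in 2.66% (2.34 to 3.02) and 1.87% (1.62 to 2.14), and Klf9 in 0.965% (0.770 to 1.19) and 0.502% (0.376 to 0.656). The intervals of these 4 did not overlap, as was so for 18.4% of all 10515 measured genes. Nr3c1 was seen in 9.56% and 9.22%, Tsc22d3 in 18.8% and 18.2%, and Fkbp5 in 3.72% and 3.95%, with overlapping intervals. Thinned to 2000 UMIs, Tsc22d3 was seen in 33.0% (32.0 to 34.0) and 30.6% (29.7 to 31.6), which did not overlap, so 5 members were apart, beside 23.7% of all genes.
Without thinning the shares were 80.0% and 64.2% for Txnip, 18.1% and 21.5% for Sgk1, 13.1% and 8.55% for Per1 and 4.70% and 2.31% for Klf9. They were 39.0% and 33.6% for Nr3c1, 58.7% and 48.7% for Tsc22d3 and 17.8% and 14.8% for Fkbp5. As a measure of free RNA, the B cell gene Cd79a was seen in 0.184% of CTRL and 0.0379% of DHEA thinned cells, and the myeloid gene Lyz2 in 0.0574% and 0.0568%. The 7 members were all above the shares of these 2 genes in both libraries. Ighm, an immunoglobulin heavy chain gene of B cells, was seen in 21.1% of CTRL and 24.0% of DHEA thinned cells, above each member except Txnip, and 7 B cell markers together stood at 273 CPM and 293 CPM. The part of free RNA in the members' shares was not tested.

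To see whether the split held within cell states, the gated cells were clustered without the members and without the genes of their pathway lists. This gave 14 clusters, of which 13 had at least 50 cells in both libraries. Cluster 7, with Gzmm, Cxcr3, Ly6c2, Ctla2a and Itm2a in front, is called memory-like, cluster 9 (Ifit3, Ifit1, Isg15) interferon-responding-like, cluster 10 (Gzma, Zeb2, S100a4) effector-like and cluster 12 (Xcl1, Egr3, Tnfrsf9) early-activated-like, and the others keep their numbers. The memory-like cluster 7 made up 3.41% of gated cells in CTRL and 9.0% in DHEA, and effector-like cells 2.24% and 4.11%. Memory markers were not confined to cluster 7, and "memory-like cells" below means that cluster alone. With both libraries pooled, the 10 listed markers together stood at 7059 CPM in cluster 4, 4786 CPM in cluster 7 and 3190 CPM in cluster 3. They stood at 15853 CPM in the effector-like cells. Cluster 4 made up 8.55% of gated cells in CTRL and 9.66% in DHEA, and cluster 3 9.77% and 11.3%. Clusters were made from genes other than the members, but a cell's members and other genes come from the same library and depth.

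Txnip was lower in DHEA in 13 of 13 clusters, with 11 intervals below 0. The exceptions were the early-activated-like cells, where it was at 145 CPM (122 to 172) in CTRL and 145 CPM (116 to 179) in DHEA, and the memory-like cells, at 348 CPM and 311 CPM with a log2 ratio of -0.16 (-0.32 to 0.0027). Its largest difference was in the interferon-responding-like cells, with 354 CPM in CTRL and 222 CPM in DHEA (-0.67, -0.85 to -0.50). Per1 was also lower in 13 of 13, from -0.06 (-0.38 to 0.25) in cluster 0 to -0.83 (-1.29 to -0.38) in cluster 6, but only the intervals of clusters 5 and 6 lay below 0. Klf9 was lower in all 10 clusters with at least 20 UMIs, with 5 intervals below 0 and the largest ratio, -1.71 (-2.79 to -0.75), in cluster 6. That ratio rests on 38 and 12 UMIs.

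Sgk1 was higher in DHEA in 12 of 13 clusters, with 6 intervals above 0. The largest ratio was in memory-like cells, with 41.8 CPM (31.8 to 53.9) in CTRL and 95.6 CPM (84.4 to 108) in DHEA (1.2, 0.78 to 1.63). Cluster 1, led by Sspn and Igfbp4, followed with 27.0 CPM and 55.9 CPM (1.05, 0.66 to 1.45). Both clusters were much shallower in DHEA, with median UMIs per cell of 3867 and 2445 in memory-like cells and 2885 and 1805 in cluster 1. The part of depth in these ratios was not tested. In cluster 2 the direction was the other way, with 29.3 CPM (25.5 to 33.6) in CTRL and 28.1 CPM (23.9 to 32.7) in DHEA (-0.06, -0.37 to 0.24).

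Nr3c1, Tsc22d3 and Fkbp5 had no common direction over the clusters. Nr3c1 was higher in DHEA in 6 clusters and lower in 7. In cluster 4, led by Klra7, Klre1, Gzmm, Klra6 and Samd3, it had 144 CPM (134 to 154) in CTRL and 158 CPM (149 to 168) in DHEA (0.14, 0.01 to 0.27). In the effector-like cells it had 166 CPM (142 to 192) and 123 CPM (108 to 139), a ratio of -0.43 (-0.71 to -0.14).
Tsc22d3 was higher in 5 clusters and lower in 8. In cluster 1 it stood at 212 CPM (195 to 230) in CTRL and 273 CPM (256 to 291) in DHEA (0.37, 0.22 to 0.52), and in cluster 4 at 132 CPM (123 to 142) and 107 CPM (99.6 to 115) (-0.30, -0.45 to -0.15). Fkbp5 was higher in 5 and lower in 8, and its 2 intervals below 0 were in cluster 1 (-0.49, -0.89 to -0.09) and in memory-like cells (-0.58, -1.08 to -0.06). Cluster 1 thus had Tsc22d3 higher and Fkbp5 lower in DHEA, beyond counting error for each. Its cells were shallower in DHEA, with median UMIs per cell of 2885 in CTRL and 1805 in DHEA. The part of depth in the Tsc22d3 and Fkbp5 ratios was not tested.

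**Figure D2:**
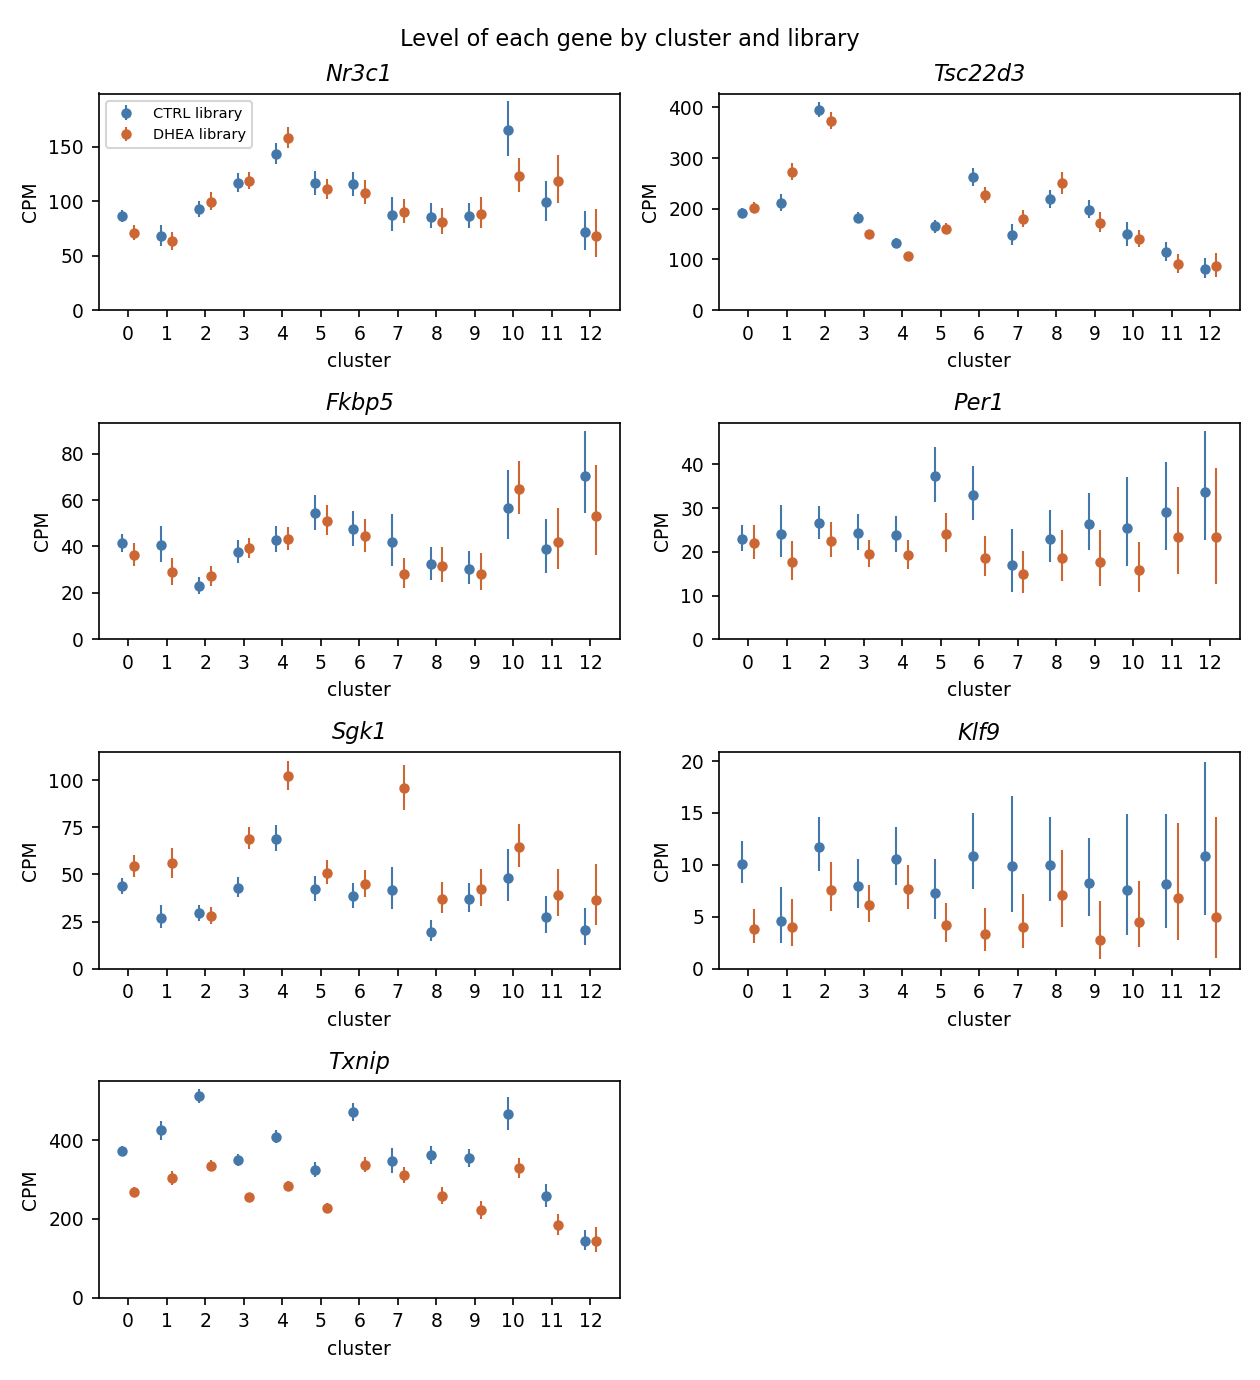
Level of each member in CPM with its exact Poisson 95% interval, in the CTRL (blue) and DHEA (orange) libraries, for the clusters with at least 50 cells in each library. Txnip and Per1 are lower in DHEA in 13 of 13 clusters and Sgk1 is higher in 12 of 13, while Nr3c1, Tsc22d3 and Fkbp5 have clusters on both sides.

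With every cluster given equal weight, so that a shift in their shares does not enter, the log2 ratios were 0.56 for Sgk1, -0.82 for Klf9, -0.47 for Txnip and -0.43 for Per1. Those of Nr3c1, Tsc22d3 and Fkbp5 were -0.04, -0.02 and -0.11. A plainer split used Ccl5, a chemokine of antigen-experienced cells. In cells without a Ccl5 UMI (6135 in CTRL, 5474 in DHEA) Sgk1 was at 35.5 CPM and 45.5 CPM (0.36, 0.23 to 0.48). In cells with at least 2 (1568 and 3655) it was at 55.8 CPM and 81.0 CPM (0.54, 0.40 to 0.67). Sgk1 was thus higher in Ccl5-bearing cells in each library, and higher in DHEA on both sides of the gate. Txnip had the ratio -0.49 in the first set and -0.48 in the second, Klf9 -0.90 and -0.67, and Per1 -0.31 and -0.45. Nr3c1 (-0.06 and -0.09), Tsc22d3 (0.02 and -0.09) and Fkbp5 (-0.03 and 0.02) had intervals that included 0 in each set.

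Across the 13 clusters with at least 50 cells in both libraries, the targets split again, and differently. Tsc22d3 was highest in cluster 2, at 395 CPM (381 to 410) in CTRL and 374 CPM (358 to 390) in DHEA, and lowest in early-activated-like cells, at 81.3 CPM (63.9 to 102) and 86.6 CPM (64.7 to 114), where cluster 11 overlapped it in both libraries. Fkbp5 ran the other way, lowest in cluster 2 at 23.1 CPM (19.7 to 26.9) and 27.2 CPM (23.1 to 31.8). Its highest clusters were the early-activated-like cells in CTRL, at 70.4 CPM (54.4 to 89.8), and the effector-like cells in DHEA, at 64.8 CPM (54.2 to 76.9). These top values overlap their neighbours in the order, since Fkbp5 in effector-like cells of CTRL was at 56.7 CPM (43.3 to 73.0) and in early-activated-like cells of DHEA at 53.3 CPM (36.5 to 75.2). Cluster 13, with 30 CTRL and 81 DHEA cells, was left out of this order. There Tsc22d3 was at 63.6 CPM (43.5 to 89.8) in CTRL and 77.0 CPM (57.7 to 101) in DHEA. Fkbp5 was there at 69.6 CPM (48.5 to 96.7) and 82.8 CPM (62.7 to 107).
Over the 26 points of 13 clusters in 2 libraries, each less its library's mean, Tsc22d3 and Fkbp5 had a Pearson r of -0.68 on log2(CPM + 10), -0.72 within CTRL and -0.63 within DHEA. Tsc22d3 and Txnip had r = 0.73, with 0.79 and 0.68 within the libraries. The points of one library share its depth and free RNA, and these values are a description.

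**Figure D3:**
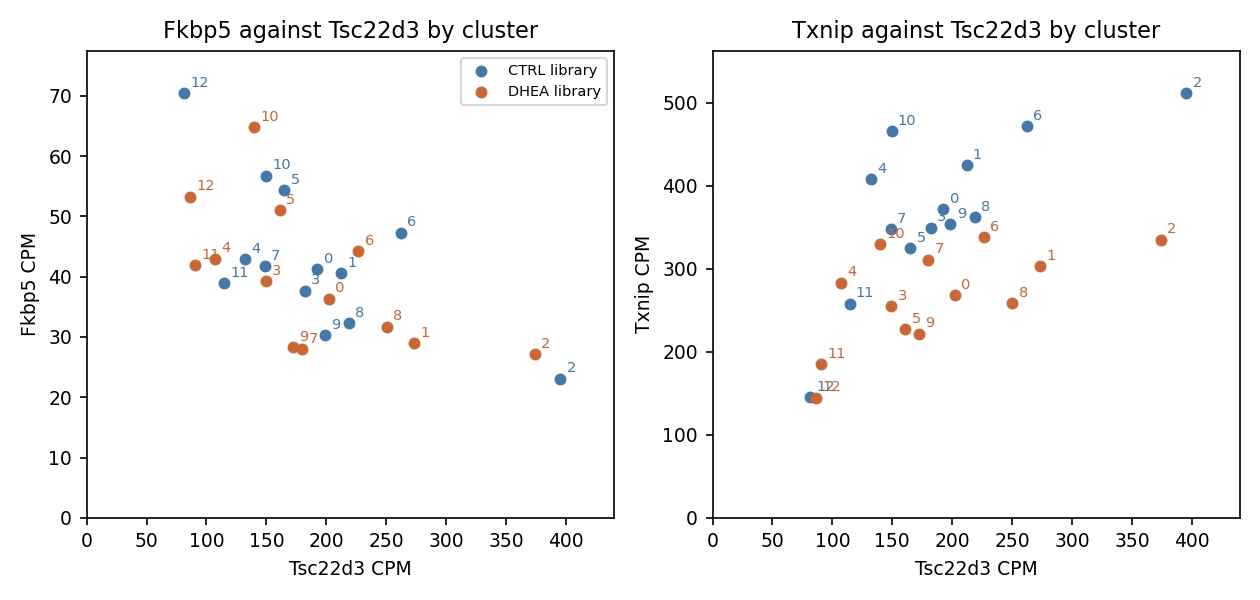
Each point is a numbered cluster in the CTRL (blue) or DHEA (orange) library, with Tsc22d3 in CPM on the horizontal axis and Fkbp5 (left) or Txnip (right) in CPM on the vertical axis. Cluster 2 lies at the lower right for Fkbp5 and far to the right for Txnip, cluster 12 at the left of both plots, and the DHEA point of each cluster is below its CTRL point for Txnip except in cluster 12, where they are level.

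Cluster 2 (1309 CTRL and 1178 DHEA cells; Usp28, Igf1r, Kif1b, Selenop, Itga4) was looked at further after its values were seen. Against all other gated cells Tsc22d3 was higher there by 1.13 on the log2 scale in CTRL and 1.12 in DHEA, and Fkbp5 was lower, at -0.89 and -0.59. Sgk1 was lower too (-0.52 and -1.2), while Klf9 (0.39 and 0.56) and Txnip (0.47 and 0.32) were higher. Nr3c1 differed little (-0.17 and -0.09), so opposite levels of Tsc22d3 and Fkbp5 stood beside a similar level of the receptor RNA. Of 121 measured genes of the members and their lists, 6 were at least 1.5-fold higher in cluster 2 in both libraries (Tsc22d3, Sesn1, Il7r, Arrdc4, Ccr7 and Tsc22d1) and 12 were lower (Fkbp5, Hsd11b1, Abcb1b, Ddit4, Tnf, Ifng, Ccl3, Ccl4, Ccl5, Fasl, Bhlhe40 and Hk2). Of all 10515 measured genes, 1.42% were higher and 4.64% lower by the same rule. Known glucocorticoid-induced genes stand on both sides, with Tsc22d3, Sesn1 and Il7r among the higher and Fkbp5 and Ddit4 among the lower.

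The remaining members also had their own order over states. Nr3c1 was lowest in cluster 1, at 68.0 CPM (58.7 to 78.3) in CTRL and 63.3 CPM (55.2 to 72.1) in DHEA, overlapping clusters 8 and 12 in both. Its highest level was in effector-like cells in CTRL, overlapping cluster 4, and in cluster 4 in DHEA, apart from the others. Sgk1 was highest in cluster 4, at 68.9 CPM (62.2 to 76.1) and 102 CPM (94.9 to 110), overlapped by effector-like cells in CTRL and memory-like cells in DHEA. Its lowest level was in cluster 8, led by Bcl3, Hivep1, Relb, Icam1 and Nfkbia, in CTRL (19.6 CPM, 14.6 to 25.8) and in cluster 2 in DHEA, and these 2 clusters overlapped each other and clusters 11 and 12 in each library. Txnip was highest in cluster 2 in CTRL, at 511 CPM (495 to 528), overlapping cluster 6 narrowly and the effector-like cells. In DHEA its highest level, 338 CPM (319 to 357) in cluster 6, overlapped cluster 2 at 335 CPM (320 to 350). Per1 was at 37.3 CPM in cluster 5 and 17.0 CPM in memory-like cells in CTRL, its extremes there, but cluster 5 overlapped clusters 6, 9, 10, 11 and 12. In DHEA the same clusters were again the extremes, at 24.2 CPM (20.1 to 28.8) and 14.9 CPM (10.7 to 20.2), and overlapped each other narrowly. The difference between them was not tested. The order of clusters was close to the same in both libraries for Nr3c1 (Spearman's rho 0.95) and Tsc22d3 (0.91), less so for Per1 (0.61), and hardly for Klf9 (0.22), the member with the fewest UMIs.

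Depth per cell differed between the libraries, so ratios were also taken within ranges of UMIs per cell. The ranges were under 2500 (620 CTRL and 2737 DHEA cells), 2500 to 5000 (2865 and 3212), 5000 to 10000 (4874 and 4493) and 10000 or more (358 and 257). Txnip was lower in DHEA in each, with log2 ratios of -0.41, -0.46, -0.58 and -0.52. Sgk1 was higher in each, but its ratio was smaller in deeper cells, at 0.83, 0.68, 0.54 and 0.18, and the interval of the last range (-0.16 to 0.51) included 0. Per1 (-1.07, -0.39, -0.36 and -0.42) and Klf9 (-0.76, -0.39, -0.90 and -0.65) were lower throughout. Tsc22d3 passed from 0.16 and 0.01 in the shallower cells to -0.25 and -0.17 in the deeper ones. Nr3c1 was at -0.51, -0.02, 0.13 and -0.24, and Fkbp5 at -0.20, -0.15, 0.01 and 0.20. Only Nr3c1 had intervals on both sides of 0. They were below 0 under 2500 UMIs (-0.77 to -0.25) and at 10000 or more (-0.45 to -0.018), and above 0 from 5000 to 10000 (0.054 to 0.20). The interval of Tsc22d3 lay apart from 0 only from 5000 to 10000 (-0.30 to -0.20). Those of Fkbp5 included 0 in each range.

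**Figure D4:**
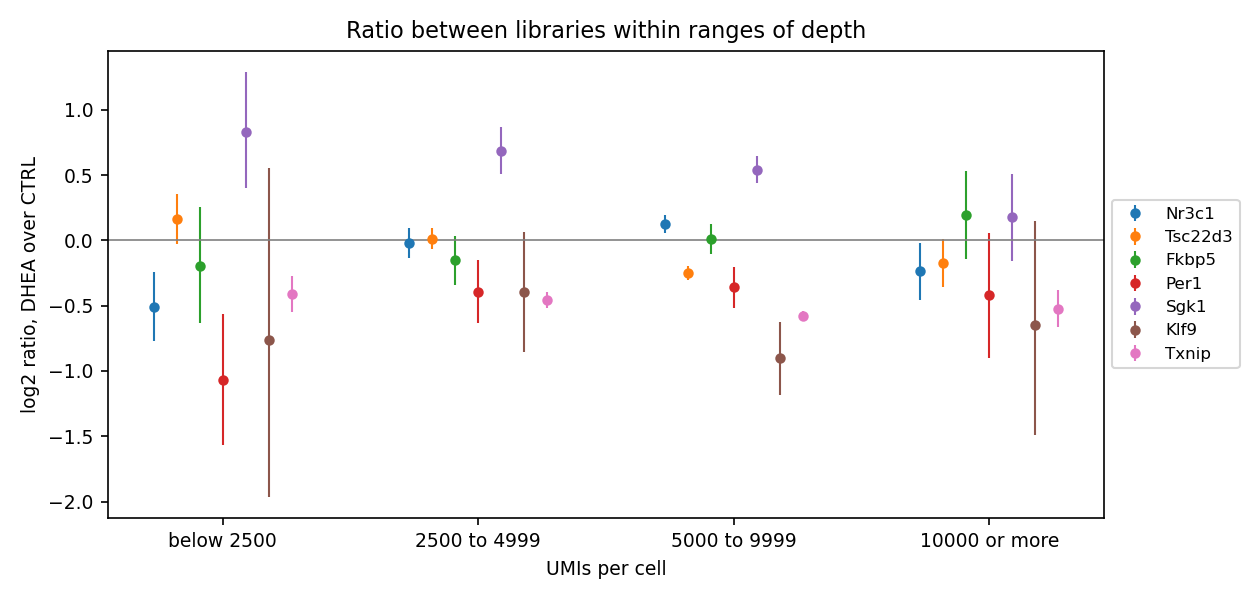
Log2 ratio of DHEA over CTRL with its exact 95% interval for each member in the 4 ranges of UMIs per cell. The points of Sgk1 are above 0 and those of Txnip, Per1 and Klf9 below 0 in each range, whereas those of Nr3c1, Tsc22d3 and Fkbp5 lie on both sides. Intervals of Klf9 include 0 in 3 ranges, and those of Sgk1 and Per1 in the deepest.

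Within single cells the members were seen together about as often as independent detection would give. For the 21 pairs, the cells with a UMI of both were set against the number that independent detection within each cluster would give, after thinning to 1000 UMIs. For the 11 pairs with at least 20 expected cells in each library, these ratios ran from 0.769 to 1.17. Tsc22d3 and Txnip were found together in 584 CTRL cells (ratio 1.08) and 525 DHEA cells (1.07). Nr3c1 and Sgk1 had the widest spread, with 1.17 in CTRL (38 cells) and 0.769 in DHEA (48 cells). Thinned to 2000 UMIs, with 105 and 194 cells, the order was the other way, at 0.904 and 1.01.

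Other genes with the most similar pattern over the 26 points were named among 7214 genes with at least 1000 UMIs. For Tsc22d3 these were Ppp1r15a (r = 0.85), Saraf and Cox7a2l, and for Fkbp5 Agpat3 (0.87), Cltc and Slc37a3. For Sgk1 they were G0s2 (0.88), Me2 and Gpat3, and for Nr3c1 Lyst (0.96), Slc9a9 and Wwp1. Per1 was nearest to Agfg1 (0.81), Tpr and Sbno1, and Klf9 to Wdr45b (0.66), Man1b1 and Rnf2. Txnip was nearest to Klf2 (0.88), Hadhb and Selplg. Klf2, a FOXO target that controls lymphocyte egress, was at 589 CPM in CTRL and 916 CPM in DHEA (0.64), so Klf2 and Txnip followed each other over states and stood on opposite sides between the libraries.

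The rest of the pathway was read from lists of genes with known roles. Their counts stand beside 49.5% of all measured genes higher in DHEA and 3.24% at least 1.5-fold apart. Of 15 measured receptor partners and steroid-handling genes, 12 were higher and 3 lower in DHEA, with a median log2 ratio of 0.12 and 0 at least 1.5-fold apart. Abcb1a, an efflux pump that exports glucocorticoids, was at 19.4 CPM and 24.7 CPM (0.34), and the chaperone Hspa8 at 987 CPM and 1199 CPM (0.28). Abcb1b, the paralogue of Abcb1a, was lower in DHEA, at 26.1 CPM and 22.6 CPM (-0.21, -0.32 to -0.091). Of 11 receptor coregulators 10 were lower, with a median of -0.18 that came to -0.03 once the median of genes of like span was subtracted. The acetyltransferase Crebbp had -0.36 and the coactivator Ncoa2 -0.32. Of 13 other glucocorticoid-induced genes, 8 were higher and 5 lower (median 0.02). Irs2, an insulin receptor substrate, was the only one of them at least 1.5-fold apart, at 29.9 CPM and 17.7 CPM (-0.76).

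Inflammatory genes that glucocorticoids are known to repress stood higher. Of 8 measured, 7 were higher in DHEA and 6 at least 1.5-fold, beside 49.5% and 1.81% of all measured genes. Their median log2 ratio was 0.95. The 6 were the chemokines Ccl4 (25.2 CPM and 71.2 CPM, 1.5), Ccl5 (728 CPM and 1693 CPM, 1.22) and Ccl3 (1.18), the death ligand Fasl (1.36) and the cytokines Ifng (0.71) and Tnf (0.65). They are also genes of memory and effector T cells. The shares of the memory-like and effector-like clusters were larger in the DHEA library, and the part of that shift was not tested. Of 8 heat shock genes 8 were higher, 4 at least 1.5-fold, namely Hspa1a (23.7 CPM and 86.3 CPM, 1.86), Hspa1b (1.73), Dnajb1 (0.80) and Dnaja1 (0.64). Hspa1a and Hspa1b were higher in the 13 clusters compared. Their largest ratios were in memory-like cells (3.68, 2.82 to 4.70, and 3.02, 2.47 to 3.63), and rest on 11 and 28 CTRL UMIs. These intervals overlapped those of other clusters, such as cluster 8 for Hspa1a (2.20 to 3.32) and cluster 1 for Hspa1b (2.36 to 3.14). The Sgk1 ratio was also largest in memory-like cells, where its interval overlapped that of cluster 1. Whether the heat shock and Sgk1 ratios go together was not tested.

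The lists closest to single targets were mixed, and their counts stand beside 49.5% of all measured genes higher in DHEA. Of 12 clock genes 5 were higher and 7 lower (median -0.10), with Bhlhe40, a clock repressor induced on activation, at 2.62 CPM and 7.29 CPM (1.48). Per2, the paralogue of Per1, was lower with it, at 5.20 CPM and 3.49 CPM (-0.57). Of 9 genes of the MondoA, thioredoxin and glucose uptake list 5 were higher and 4 lower (0.06). Arrdc4, an arrestin paralogue of Txnip and a MondoA target like it, was the only one at least 1.5-fold apart, at 4.75 CPM and 2.36 CPM (-1.01, -1.34 to -0.69). The glucose transporter Slc2a1 was at 36.3 CPM and 42.1 CPM (0.21), and Slc2a3 was level at 33.8 CPM and 33.7 CPM (-0.0037). Of the hexokinase genes, Hk1 was lower (-0.28) and Hk2 higher (0.44).
Of 17 genes of the SGK1, AKT and FOXO axis 7 were higher and 10 lower (-0.11), and Klf2 was the only one at least 1.5-fold apart. Of 15 paralogues of the members 5 were higher and 10 lower (-0.06), with Arrdc4 and Klf11 (7.90 CPM and 4.15 CPM, -0.93) at least 1.5-fold lower. Klf11, like Klf9 a Krüppel-like repressor, was thus lower beside it. Of 13 immediate early genes, which rise with cell handling and stimulation, 7 were higher and 6 lower (0.02), and Ier3 (4.83 CPM and 7.63 CPM, 0.66) was the only one at least 1.5-fold apart.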

How the data were processed

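Per the file headers, the authors counted UMIs with Cell Ranger 8.0.1, and the deposited files are unnormalised UMI counts for each gene in each barcode. Seurat 4.3.0 and mm39 appear in the submitters' processing notes with no role. Whether barcodes or doublets were removed before deposit is not stated, and no doublets were removed here.

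UMIs were summed over the gated cells of each library and given as CPM with exact Poisson intervals. Log2 ratios have exact Clopper-Pearson intervals from the split of the 2 counts. With 1 library per group there was no test, and 1.5-fold was used as a rule of size for genes with at least 200 UMIs. The log2 ratios with their intervals and the thinning were checked on simulated counts, and the other steps were not.

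Clusters came from 2000 variable genes, centred and scaled within each library, with 30 principal components, 15 neighbours and Leiden resolution 1.0. A cluster was named "-like" only from listed markers among its leading genes. Genomic spans came from GENCODE M21 and covered 97.7% of measured genes. Tools were Python 3.11.15, scanpy 1.11.5, leidenalg 0.10.2, scipy 1.17.1 and, for TMM scaling, edgeR 4.0.16.

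Named genes were the 7 members, list genes at least 1.5-fold apart (otherwise the 2 with the largest ratios), the 3 genes most like each member over clusters, and the leading 5 genes of a described cluster. Nfkbia and Icam1 appear as leading genes. Hsd11b1, Slc2a1, Slc2a3, Hk1, Per2 and the other genes of the cluster 2 comparison fall outside this rule and were chosen after their values were seen. The members and lists were chosen with earlier results of these data known. Alternatives covered scaling, gate, depth, filters, fold and clustering.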

Additional observations from a re-analysis of the deposited data

Results flagged for a closer look

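The log2 ratio of Nr3c1 between DHEA and CTRL was 0.14 (0.01 to 0.27) in cluster 4 and -0.43 (-0.71 to -0.14) in the effector-like cluster 10, a difference of 0.57 between the clusters. That of Tsc22d3 was 0.37 (0.22 to 0.52) in cluster 1 and -0.30 (-0.45 to -0.15) in cluster 4, a difference of 0.66. Each pair was singled out because the 1 library of each group gave opposite directions in the clusters, with intervals of counting error that did not include 0. Cluster 1 was also shallower in DHEA, with median UMIs per cell of 2885 in CTRL and 1805 in DHEA, and the part of depth was not tested. With 1 library per group neither difference was tested.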

How the results depend on the processing

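Over all gated cells and with states weighted equally, Sgk1 stayed higher and Klf9, Txnip and Per1 lower in DHEA under the settings tried, while Nr3c1 and Fkbp5 changed sign. Tsc22d3 kept a ratio below 0, but was level (-0.00014) with states weighted equally and genes centred over both libraries. It was above 0 in cells under 2500 UMIs (0.16), in those from 2500 to 5000 (0.012) and in those without Ccl5 (0.019), with intervals that included 0. With the like-span median subtracted the log2 ratios were 0.18 (Nr3c1), -0.058 (Tsc22d3), 0.13 (Fkbp5), 0.73 (Sgk1) and -0.60 (Txnip). The values of Sgk1 and Tsc22d3 rest on uncertain span groups, since the annotated starts of each gene lie far apart. Thinned to 1000 UMIs they were -0.070 (Nr3c1), -0.043 (Tsc22d3), 0.080 (Fkbp5), -0.54 (Per1), 0.71 (Sgk1) and -0.43 (Txnip). With every cell weighted equally Tsc22d3 was at -0.042 and Txnip at -0.45. With states weighted equally, Fkbp5 was at -0.0026 and Sgk1 at 0.47 by the Ccl5 gate, Sgk1 at 0.48 and Txnip at -0.51 with genes centred over both libraries, and Tsc22d3 at -0.064 at resolution 0.5 and -0.069 at 1.5. Members at least 1.5-fold apart, 1 as reported, numbered 2 with TMM scaling, cells weighted equally, thinning or the highest-UMI cells left out, 3 with the like-span median subtracted, and 0 at a fold of 2 or a minimum of 1000 UMIs, which leaves out Klf9. Of the 10515 measured genes, 190 were higher and 151 lower by at least 1.5-fold as reported. These came to 405 and 326 with thinning, and 237 and 185 with cells weighted equally. They were 206 and 140 with TMM scaling, and 169 and 131 with the like-span median subtracted. With the highest-UMI cells left out they were 189 and 136 of 10230 genes. At a fold of 2 they were 49 and 22, and at a minimum of 1000 UMIs 72 and 37 of 7610 genes. List genes at least 1.5-fold apart went from 16 to 8 at a fold of 2 and 10 at a minimum of 1000 UMIs. Pooling of animals, depth and group cannot be told apart with 1 library each. No paired analysis was possible because each group has 1 library.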
